A study of Mus musculus with 18 samples.

Results

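The subject is a set of 91 mostly noncoding loci, of 13218 rows in the table, that were expressed in the spermatogonial libraries used to choose them and low in the pachytene and spermatid libraries used to choose them. The loci were chosen by their measured levels. The day 6 mean was taken over priSG-A_1 and priSG-A_2, the day 9 mean over priSG-B_1 to priSG-B_3, the day 21 mean over pacSC_1 and pacSC_2, and the day 35 mean over rST_2 and rST_3. A locus entered when its day 6 and day 9 means were each at least 2 FPKM and each at least 4 times the day 21 mean plus 0.1 and the day 35 mean plus 0.1. FPKM counts sequenced fragments relative to transcript length and to the library's total. Of 98 rows that passed, 7 were left out by name, and all 91 that remained are described. The rule used 9 of the 18 libraries, so the fall between those libraries is what defined the set and is given without a test.

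RNA came from testis cells of ICR mice, an outbred strain, separated by STA-PUT sedimentation, which sorts cells mainly by size and enriches a type without purifying it. The 6 labels, with 3 libraries each, were priSG-A from postnatal day 6, priSG-B from day 9, plpSC from day 14, pacSC from day 21, rST from day 35 and elST from day 56. The labels give no long form of these names; SG, SC and ST are commonly read as spermatogonia, spermatocytes and spermatids. No label names a genetic change or a treatment, and since each type came from its own age, type and age cannot be told apart. The series text speaks of duplicates, whereas the labels give 3 libraries per type, and all 3 were used as labelled. No label says whether the 3 libraries of a type came from separate animals. A p-value thus reflects the spread between these libraries alone, and that spread may be technical.

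Spermatogonia are the mitotic germ cells of the testis and include its stem cells. They give rise to spermatocytes, which pass through meiosis, and then to haploid round and elongating spermatids. During the pachytene stage of meiosis the X and Y chromosomes are largely silenced in the male. Long noncoding RNAs are transcripts without a long reading frame, and many start beside, or run antisense to, a coding gene.

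Several libraries went against their type labels, and every result that rests on them is read with this in mind. Over 4026 tested loci outside the set, the library most alike in log2 level carried another type label for 13 of 18 libraries. The library labelled plpSC_3 had r of 0.0858 to 0.0991 with the other plpSC libraries but 0.960 with elST_2. The library labelled rST_1 had r of 0.0435 to 0.0830 with the other rST libraries but 0.952 with elST_1 and 0.931 with priSG-A_2. In turn, elST_1 had r of 0.225 and 0.434 with the other elST libraries but 0.952 with rST_1 and 0.929 with plpSC_2. To a lesser degree, priSG-A_3 had r of 0.550 to 0.592 with the other priSG-A libraries but 0.816 with pacSC_1. Likewise, pacSC_3 had r of 0.596 to 0.603 with the other pacSC libraries but 0.952 with rST_3. These r values are descriptions across loci, which are not independent. A locus overlapping Tnp1, 1700027A15Rik, gave the same order: it stood at 874 FPKM in plpSC_3 but at 0 in plpSC_1 and plpSC_2. It stood at 0.57 FPKM in elST_1 against 875 and 73.0 in elST_2 and elST_3, and at 0 in rST_1 against 4539 and 3175 in rST_2 and rST_3. In priSG-A_3 it stood at 11.85 FPKM, against 0.139 and 0 in priSG-A_1 and priSG-A_2. Tnp1 encodes a transition protein of spermatids. The libraries also split by AY036118, a ribosomal RNA-derived locus. It was at 7.25 to 36.2 FPKM in the priSG-B libraries, pacSC_1, pacSC_2 and elST_3, and at 1998 FPKM or more in the other 12. Depth inferred from the steps between low values was 31.7 to 92.7 M (mega) fragments.

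The 91 loci gave their median level in every library, and the libraries the rule did not use did not follow the type order. In the libraries the rule used, the median was 4.39 and 5.55 FPKM in priSG-A_1 and priSG-A_2, 5.53, 5.22 and 5.40 in priSG-B_1 to priSG-B_3, 0.509 and 0.543 in pacSC_1 and pacSC_2, and 0.257 and 0.159 in rST_2 and rST_3. In the libraries it did not use, the median was 4.13 and 4.88 FPKM in plpSC_1 and plpSC_2, 4.87 in rST_1 and 3.604 in elST_1. It was 2.43 FPKM in priSG-A_3, 0.529 in elST_3, 0.316 in pacSC_3, 0.203 in elST_2 and 0.201 in plpSC_3. Thus rST_1, labelled as spermatids, lay within the range of the spermatogonial libraries of the rule and elST_1 just below it, above priSG-A_3, while plpSC_3 was as low as the spermatid libraries of the rule. The name "lost by meiosis" therefore describes the 9 libraries of the rule and not all 18. When all 3 libraries of each type were used in the same rule, only 4 loci met it: Gm17122, Gm43126, Gm45841 and Gm47766. In bulk RNA, fewer cells of a type and less RNA per cell cannot be told apart.

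**Figure D1:**
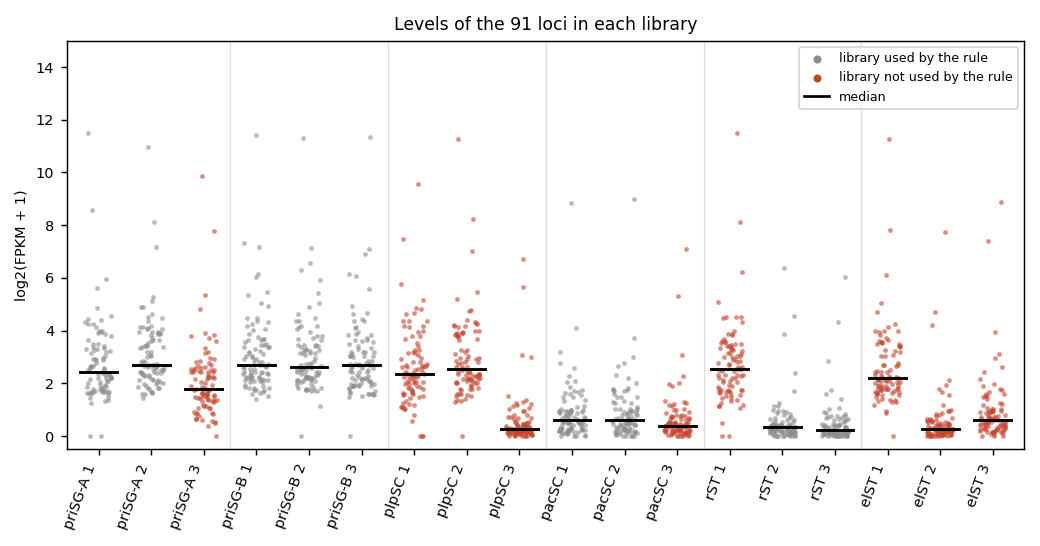
Each point is 1 of the 91 loci, as log2(FPKM + 1), in each of the 18 libraries; black lines are medians, grey points are libraries used by the rule and red points libraries it did not use. The red libraries plpSC_1, plpSC_2, rST_1 and elST_1 have medians of 3.604 to 4.88 FPKM, while plpSC_3, pacSC_3, elST_2 and elST_3 have medians of 0.201 to 0.529 FPKM.

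Most other loci expressed in the spermatogonial libraries of the rule kept more of their level. The table held 597 loci with day 6 and day 9 means of at least 2 FPKM, of which 506 were outside the set. In plpSC_3, which the rule did not use, 1 of the 91 loci and 370 of the 506 others (73.1%) kept at least 25% of the mean of their day 6 and day 9 levels. In elST_2 the counts were 0 of 91 and 380 of 506 (75.1%). In elST_3 they were 1 of 91 and 444 of 506 (87.7%), and in pacSC_3 they were 2 of 91 and 344 of 506 (68.0%). The 506 are mostly loci that failed the fall the rule asked for, and these 4 libraries resembled libraries of the rule: over loci outside the set, r was 0.978 for elST_3 with pacSC_2, 0.952 for pacSC_3 with rST_3, 0.905 for plpSC_3 with rST_2 and 0.894 for elST_2 with rST_2. The contrast was thus largely set by the choice of loci and supports nothing beyond it. By contrast, 83 and 90 of the 91 kept at least 25% in plpSC_1 and plpSC_2, 88 in rST_1, 90 in elST_1 and 75 in priSG-A_3. No test was made of these counts.

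**Figure D2:**
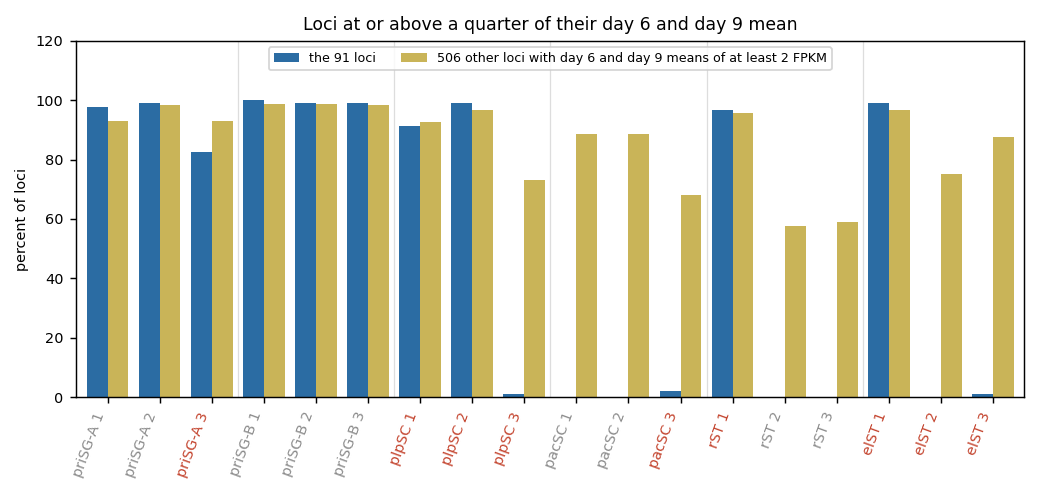
Percent of loci that kept at least 25% of the mean of their day 6 and day 9 levels in each library, for the 91 loci (blue) and for 506 other loci with both means of at least 2 FPKM (yellow); red names mark libraries the rule did not use. In plpSC_3 and elST_2 the yellow bars stand at 73.1% and 75.1%, while 1 and 0 of the 91 loci reached that level.

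Levels ranged widely within the set. The day 6 mean ran from 2.10 to 2424 FPKM with a median of 5.61, and the day 9 mean from 2.08 to 2614 with a median of 5.43. The day 21 mean had a median of 0.520 FPKM and the day 35 mean one of 0.214. As a share of the mean of the day 6 and day 9 levels, this was a median of 9.60% (0 to 21.2%) at day 21 and 3.66% (0 to 20.2%) at day 35. Only 30 of the 91 loci had a spermatogonial mean of 10 FPKM or more, and 2 had one of 100 or more. For the 36 loci with 1 transcript and at least 600 bp of exon, these levels meant a median of 852 fragments in priSG-B_2 and of 8.53 in rST_3. A low value thus rested on few fragments, and differences between loci at the low end were not resolved at this depth.

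Members just inside the thresholds were close to rows just outside them, except at the ratio of the day 6 to the day 35 mean, where they lay further apart. Apol7d and Gm45779 entered with day 6 means of 2.10 FPKM each, while 9430081H08Rik with 1.97 and Gm37136 with 1.75 did not. Gm43019 and D430020J02Rik entered with day 9 means of 2.08 and 2.13 FPKM, while Gm36936 and Gm6277, with 1.997 and 1.98, did not. For the ratio of the day 6 mean to the day 21 mean plus 0.1, 5430405H02Rik and Gm12758 entered at 4.01 each, and Gm15015 and Gm15020 stayed out at 3.93 and 3.90. For the ratio of the day 9 mean to the day 21 mean plus 0.1, Gm5784 and BC002059 entered at 4.01 and 4.05, and Gm44164 and Gm49083 stayed out at 3.76 and 3.75. For the day 6 mean over the day 35 mean plus 0.1, Gm4316 and Zim2 entered at 4.11 and 7.46 and BC065397 stayed out at 3.19. For the day 9 mean over the day 35 mean plus 0.1, 2010204K13Rik and Gm17024 entered at 4.35 and 4.82, and Gm17035 and Gm49759 stayed out at 3.93 and 3.84.

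Among the loci of the set were transcripts that hold or lie beside microRNAs, the short RNAs that pair with messenger RNAs through a seed of bases 2 to 8. Their mature sequences, taken from RefSeq on GRCm38.p6, are shown because they tell which microRNA each locus could carry. Capitals mark the seed.
miR-202-5p: uUCCUAUGcauauacuucuuu
miR-202-3p: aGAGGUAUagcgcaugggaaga
miR-101a-3p: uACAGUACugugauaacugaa
miR-196a-5p: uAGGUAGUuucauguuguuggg
miR-322-5p: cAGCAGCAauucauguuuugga
miR-503-5p: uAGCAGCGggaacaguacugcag
miR-351-5p: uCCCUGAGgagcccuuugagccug
The miR-202 sequences lie in an exon of Gm2044, and miR-101a-3p in an exon of E130102H24Rik. The miR-196a-5p sequence lies 319 bp past the end of Gm53. The miR-322-5p, miR-503-5p and miR-351-5p sequences lie 719, 997 and 1708 bp past C430049B03Rik, and all 4 loci are read on the same strand as their microRNA. No 2 of the 7 seeds are identical, although those of miR-322-5p and miR-503-5p differ only at their last base. The first pair hold their microRNAs, while the other 2 lie beside them. The libraries measured the long transcripts and not the mature microRNAs.

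Gm2044 (chr7:139957005-139958039, minus strand, lincRNA in GENCODE M21), the host of miR-202, was highest in a plpSC library. It stood at 8.81, 5.55 and 4.43 FPKM in priSG-A_1 to priSG-A_3, 13.5, 14.3 and 16.3 in priSG-B_1 to priSG-B_3, and 19.5, 4.09 and 0 in plpSC_1 to plpSC_3. It stood at 0.977, 0.736 and 0.133 FPKM in pacSC_1 to pacSC_3, 7.01, 0.175 and 0.0822 in rST_1 to rST_3, and 3.32, 0.0676 and 0.427 in elST_1 to elST_3. The priSG-B libraries lay above the priSG-A libraries without overlap, and plpSC, rST and elST each held both high and low libraries.

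Gm53 (chr11:96251105-96264868, plus strand, lincRNA) lies in the Hoxb cluster, 6589 bp from Hoxb9, and kept the smallest share at day 21 among these 4 loci. It stood at 9.45, 21.2 and 2.43 FPKM in priSG-A_1 to priSG-A_3, 10.9, 9.97 and 10.9 in priSG-B_1 to priSG-B_3, and 9.66, 18.2 and 0.283 in plpSC_1 to plpSC_3. It stood at 0.135, 0.133 and 0.159 FPKM in pacSC_1 to pacSC_3, 11.8, 0.295 and 0.0906 in rST_1 to rST_3, and 7.30, 0.128 and 0.248 in elST_1 to elST_3. Its 3 pacSC libraries were alike and all under 0.2 FPKM. Hox genes encode transcription factors that pattern the body axis in mesodermal tissue of the embryo.

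C430049B03Rik (chrX:53055046-53057190, minus strand), beside the miR-322 and miR-503 genes, was higher at day 6 than at day 9. It stood at 8.34, 14.0 and 4.70 FPKM in priSG-A_1 to priSG-A_3, 5.14, 5.22 and 5.42 in priSG-B_1 to priSG-B_3, and 6.72, 8.20 and 0.133 in plpSC_1 to plpSC_3. It stood at 0.959, 0.620 and 0.386 FPKM in pacSC_1 to pacSC_3, 9.25, 0.458 and 0.325 in rST_1 to rST_3, and 4.43, 0.563 and 1.28 in elST_1 to elST_3. The day 6 and day 9 libraries overlapped, because priSG-A_3 was the lowest of the 6. E130102H24Rik (chr4:101346531-101356735, minus strand, lincRNA), which holds miR-101a, was the lowest of the 4. Its plpSC values were 6.67, 3.58 and 0.0874 FPKM, and its priSG-B values were 3.77, 3.56 and 2.82.

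Zfas1 (chr2:167062934-167065862, plus strand) is a well studied host of small nucleolar RNAs that starts head to head with Znfx1, 81 bp apart. It stood at 20.8, 33.8 and 12.9 FPKM in priSG-A_1 to priSG-A_3 and at 64.0, 59.8 and 70.4 in priSG-B_1 to priSG-B_3. It stood at 16.4, 43.2 and 1.30 FPKM in plpSC_1 to plpSC_3 and at 5.82, 7.05 and 1.19 in pacSC_1 to pacSC_3. It stood at 22.1, 1.23 and 0.566 FPKM in rST_1 to rST_3 and at 24.9, 1.96 and 6.71 in elST_1 to elST_3. All 3 priSG-B libraries were above every other library. Its exons overlap those of Znfx1 on the other strand, and the TruSeq RNA kit used does not keep strand, so reads of the 2 genes cannot be told apart where they overlap.

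Firre (chrX:50555744-50635321, minus strand, 27 exons) is an X-linked nuclear RNA with many repeats that is known to help organise chromatin. It stood at 16.6, 23.5 and 13.2 FPKM in priSG-A_1 to priSG-A_3, 17.2, 17.1 and 12.2 in priSG-B_1 to priSG-B_3, and 24.1, 20.1 and 0.17 in plpSC_1 to plpSC_3. It stood at 0.888, 0.690 and 0.961 FPKM in pacSC_1 to pacSC_3, 21.8, 0.553 and 0.324 in rST_1 to rST_3, and 14.8, 0.247 and 0.885 in elST_1 to elST_3. No library lay between 0.961 and 12.2 FPKM, so that Firre was either above 12 or below 1 in each of the 18.

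**Figure D3:**
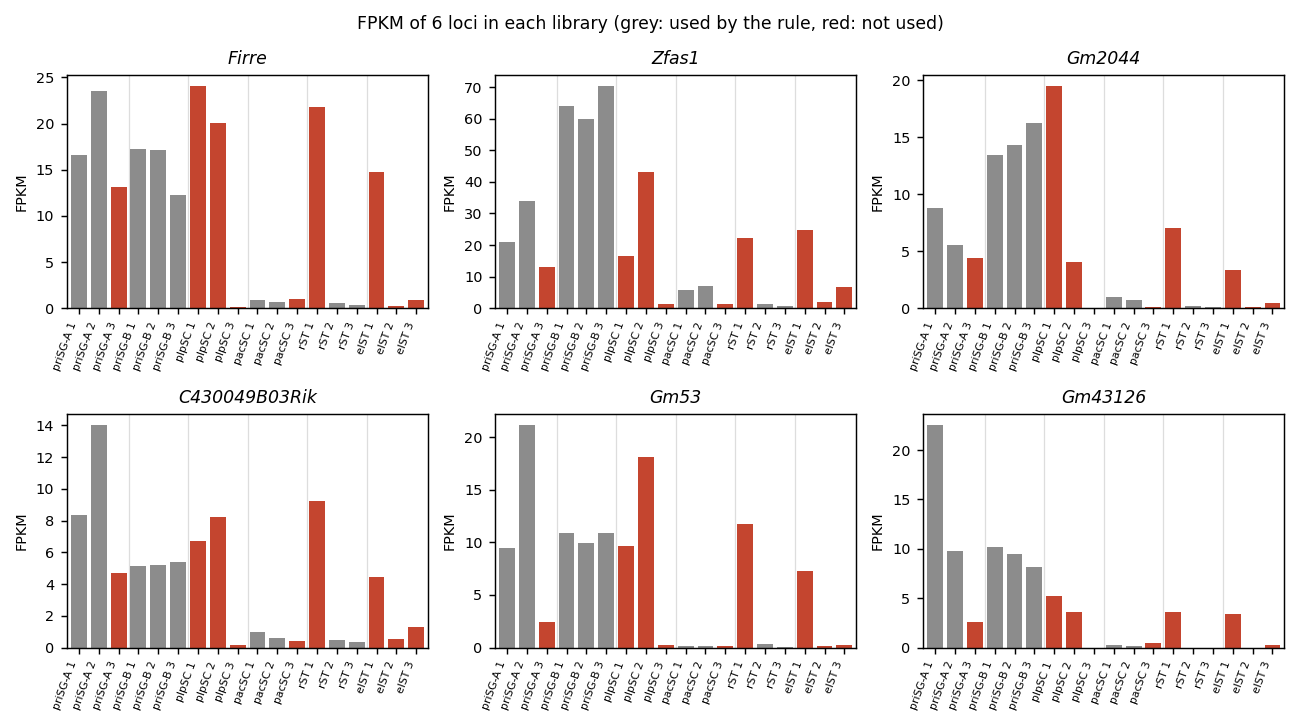
FPKM of Firre, Zfas1, Gm2044, C430049B03Rik, Gm53 and Gm43126 in each of the 18 libraries, with 1 bar per library (grey used by the rule, red not used). In each panel plpSC_3 is lower than plpSC_1 and plpSC_2, and rST_1 and elST_1 stand above the other libraries of their types.

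The X chromosome was frequent in the set. Of 15 X-linked loci with day 6 and day 9 means of at least 2 FPKM, 10 (66.7%) were members, against 80 of 580 autosomal loci (13.8%). Outside the pseudoautosomal region, the stretch that the X and the Y share, 9 of 14 (64.3%) were members. The rule used the pachytene and spermatid levels, so this share describes the choice of loci and was not tested. Besides Firre and C430049B03Rik the X-linked members were Gm21887, Gm14820, Gm14493, Gm14798, 5530601H04Rik, 2010204K13Rik, Gm36995 and Gm15017. In pacSC_3, which the rule did not use, the X-linked members kept a median of 5.71% of their spermatogonial mean and the autosomal members 5.24%. Since every member was chosen to be low in pacSC_1 and pacSC_2, members of the X and of the autosomes were not compared there.

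Gm21887 (chrX:170009659-170019281, plus strand, listed as coding in GENCODE M21) was the most abundant member placed on the X, and it lies in the pseudoautosomal region. Its levels were 47.6, 37.9 and 26.9 FPKM in priSG-A_1 to priSG-A_3, 29.7, 29.0 and 23.5 in priSG-B_1 to priSG-B_3, and 3.90, 4.01 and 3.84 in pacSC_1 to pacSC_3. The 3 pacSC libraries were alike and far below the other 6. Gm14820 (chrX:8042943-8074619, plus strand) runs antisense to Suv39h1, which encodes a histone H3 lysine 9 methyltransferase. It stood at 6.66, 13.7 and 3.98 FPKM in priSG-A_1 to priSG-A_3, at 19.7, 19.8 and 19.6 in priSG-B_1 to priSG-B_3 and at 2.31, 2.25 and 0.392 in pacSC_1 to pacSC_3. Its day 9 libraries were all above its day 6 libraries. Gm14798 (chrX:94028854-94099304, plus strand) overlaps Zfx, a zinc-finger transcription factor gene, on the other strand, and Gm14493 (chrX:10717473-10718710, minus strand) overlaps Mid1ip1. Their day 6 means were 6.19 and 10.05 FPKM, and their day 21 means 1.03 and 1.14.

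The sole member placed on the Y was Gm47283 (chrY:90784738-90816465, plus strand), which GENCODE M21 lists as coding and which lies in the pseudoautosomal region, as Gm21887 does. It stood at 376, 275 and 220 FPKM in priSG-A_1 to priSG-A_3, 143, 140 and 118 in priSG-B_1 to priSG-B_3, and 178, 297 and 49.9 in plpSC_1 to plpSC_3. It stood at 15.9, 12.1 and 38.8 FPKM in pacSC_1 to pacSC_3, 277, 22.2 and 19.1 in rST_1 to rST_3, and 227, 25.3 and 14.3 in elST_1 to elST_3. Every priSG-A library was above every priSG-B library. The X and the Y carry the same sequence in this region, so the levels of Gm47283 and Gm21887 are uncertain and neither stands for a gene found on 1 sex chromosome alone.

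Many members lie on the other strand of a coding gene. By GENCODE M21 type the 91 were 28 antisense, 24 lincRNA, 15 processed transcript, 13 TEC, a class that awaits experiment, 5 bidirectional promoter, 4 coding and 1 sense intronic, and 1 had no entry. Of 87 members with the same start and end in GENCODE M21, 37 (42.5%) shared exon bases with a coding gene on the other strand, against 37.8% of 490 other expressed loci. A start within 1000 bp of a coding start on the other strand was found in 17 of the 87 (19.5%) and in 24.1% of the 490. On both measures the members were near the other expressed loci, and neither was tested. Because the kit does not keep strand, reads of the coding gene cannot be told from reads of such a member where exons overlap. This limit holds, among others, for Gm10252, Gm20628, Gm14820, Gm14798, Gm14493 and A230005M16Rik, so their levels cannot be assigned to the noncoding RNA alone.

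Within 5 kb of the 26 spermatogonial markers that were looked up lay 17 rows of the table, and 5 of these had 1 FPKM or more in 3 or more libraries. Members made up 2 of the 5. Of the 3 that were not, Gm10676 beside Nanos2 stood at 2.32 and 2.29 FPKM in pacSC_1 and pacSC_2 against 0.409 to 0.814 in the priSG libraries of the rule. Gm16277 at Gfra1 stood at 4.26 FPKM in plpSC_3 and 3.42 in pacSC_3 against 0.539 to 2.98 in those libraries. Neither was thus lower in the later libraries named, but other later libraries differed. Gm10676 stood at 0.219, 0.367 and 0.183 FPKM in pacSC_3, rST_2 and rST_3, below those priSG libraries. Gm16277 stood at 1.69 and 1.02 FPKM in pacSC_1 and pacSC_2 and at 1.52 and 1.33 in rST_2 and rST_3. These values were below its 2.67 to 2.98 FPKM in priSG-B but not below its 0.539 in priSG-A_1. Gm38034 at Foxo1 stood at 1.11 to 1.80 FPKM in the priSG libraries of the rule, at 0.0878 to 0.118 in pacSC and at 0.0374 in plpSC_3. Other later libraries were not low, with 1.51 and 2.25 FPKM in plpSC_1 and plpSC_2, 2.03 in rST_1 and 1.73 in elST_1.

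Of the 2 members, Gm43126 (chr6:127122966-127126155, plus strand) lies antisense to an exon of Ccnd2, a cyclin of the G1 phase. It stood at 22.6, 9.80 and 2.58 FPKM in priSG-A_1 to priSG-A_3, 10.1, 9.48 and 8.13 in priSG-B_1 to priSG-B_3, and 5.19, 3.56 and 0 in plpSC_1 to plpSC_3. It stood at 0.246, 0.177 and 0.414 FPKM in pacSC_1 to pacSC_3, 3.58, 0 and 0 in rST_1 to rST_3, and 3.35, 0 and 0.280 in elST_1 to elST_3. It was listed at 0 in 4 libraries, all of them among those low for the whole set.

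Gm20402 (chr3:52268435-52269435, minus strand) lies antisense to Foxo1, a transcription factor gene needed in spermatogonial stem cells. It stood at 2.30, 4.36 and 1.99 FPKM in priSG-A_1 to priSG-A_3, 9.49, 9.66 and 7.13 in priSG-B_1 to priSG-B_3, and 1.25, 4.51 and 0 in plpSC_1 to plpSC_3. It stood at 0.486, 0.376 and 0.130 FPKM in pacSC_1 to pacSC_3, 3.34, 0.129 and 0 in rST_1 to rST_3, and 2.39, 0.149 and 0.436 in elST_1 to elST_3. Its priSG-B libraries were above all others. Reads of the coding strand could be counted in either locus, so neither value can be assigned to the antisense RNA alone.

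Gm10252 (chr7:45459469-45460300, plus strand) overlaps an exon of Ftl1, the ferritin light chain, and its level ran from 54.1 and 130 FPKM in plpSC_1 and plpSC_2 to 7.09 in plpSC_3. Its pacSC levels were 8.06, 5.82 and 7.44 FPKM, which were all below its lowest priSG value, 40.2 FPKM in priSG-A_3. Gm20628 (chr3:96267075-96270289, minus strand) overlaps the histone genes Hist2h2bb and Hist2h3b. It stood at 10.2, 29.1 and 4.71 FPKM in priSG-A_1 to priSG-A_3 and at 43.3, 42.2 and 46.4 in priSG-B_1 to priSG-B_3. Its neighbour Gm42743 (chr3:96269721-96279001, plus strand) overlaps it on the other strand and stood at 4.22, 16.6 and 4.40 FPKM in the former and 11.7, 12.05 and 13.6 in the latter.

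The set held 17 members in 8 groups of neighbours no more than 200 kb apart. On chromosome 2, 5430405H02Rik (chr2:156844351-156862963, minus strand) and Gm14230 (chr2:156833049-156839892, minus strand) lie at Tgif2, a homeobox gene. 5430405H02Rik stood at 13.7, 28.7 and 14.0 FPKM in priSG-A_1 to priSG-A_3, at 31.7, 32.2 and 29.7 in priSG-B_1 to priSG-B_3, and at 5.04, 5.35 and 0.726 in pacSC_1 to pacSC_3. Gm14230 stood at 6.48, 11.5 and 2.34 FPKM, at 9.92, 9.67 and 8.96, and at 0.678, 0.489 and 0.328 in the same libraries. Both were lower in each pacSC library than in any priSG library. The other groups were Gm20628 and Gm42743 on chromosome 3, Gm47428, E430024I08Rik and Gm47469 on 13, 2810410L24Rik and 2900052L18Rik on 11, Gm46339 and Gm5784 on 12, Gm43359 and Gm43361 at Atp2a2 on 5, Gm12758 and BC060293 on 7, and 2010204K13Rik and Gm36995 on the X. Zim2 (chr7:6651748-6662368, minus strand), from the imprinted Peg3 region, where several genes are read from the copy of a single parent, stood at 4.27, 4.87 and 1.55 FPKM in priSG-A_1 to priSG-A_3 and at 0.523, 0.613 and 1.02 in pacSC_1 to pacSC_3.

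**Figure D4:**
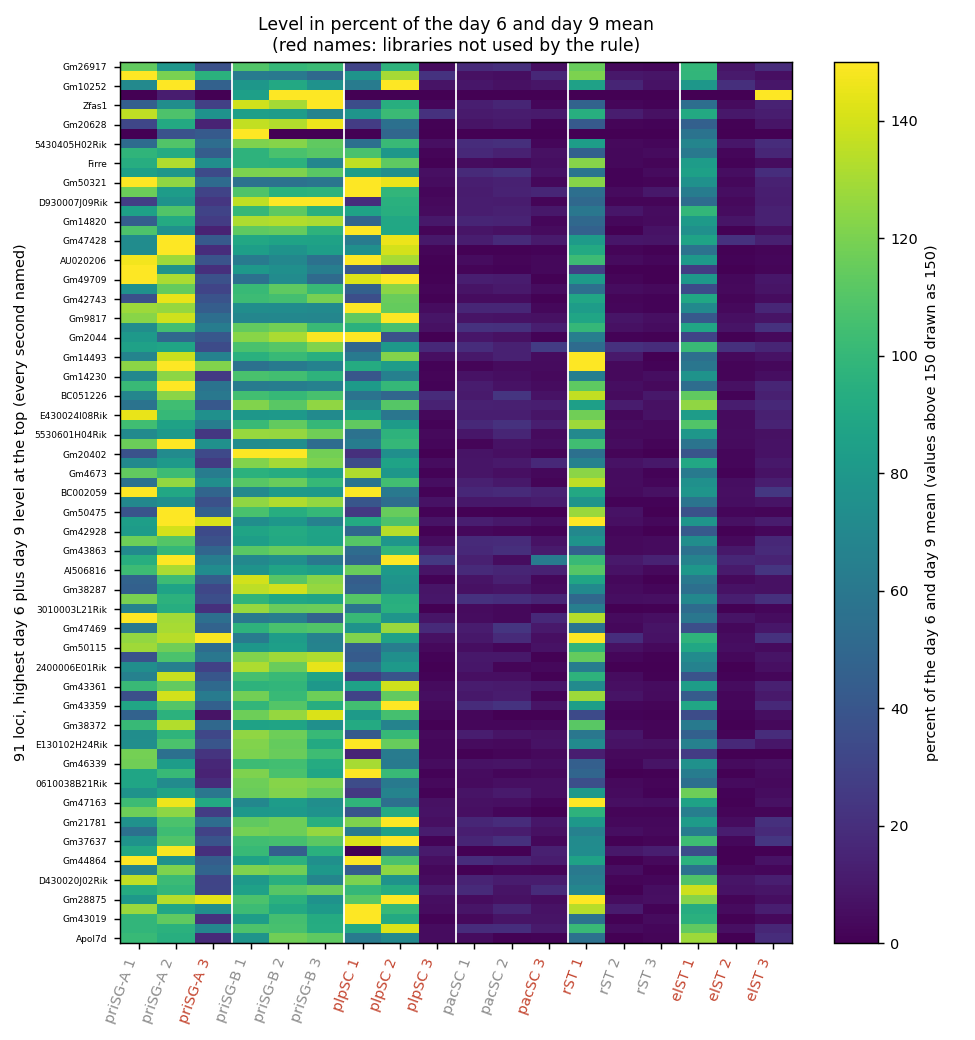
Level of each of the 91 loci (rows, highest at the top) in each of 18 libraries (columns), as percent of the mean of its day 6 and day 9 levels, with values above 150% drawn as 150%; red names mark libraries the rule did not use. Columns plpSC_3, pacSC_3, elST_2 and elST_3 are dark for nearly all loci, while rST_1 and elST_1, with medians of 80.6% and 72.6%, resemble the spermatogonial columns.

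Some members differed between the spermatogonial types. The day 9 mean was above the day 6 mean in 51 members and below it in 40, with a median ratio of 1.05. In 8 members the day 9 mean was at least 2 times the day 6 mean: Zfas1, Gm20402, Gm20628, Gm2044, D930007J09Rik, Gm38287 and the short loci Gm42687 and Gm45841. In 8 others the day 6 mean was at least 2 times the day 9 mean: C030034L19Rik, Gm50321, Gm47283, Gm49709, Gm35533, AU020206, C430049B03Rik and Gm37335. AU020206 (chr7:75769038-75782099, minus strand) stood at 18.8, 16.3 and 4.88 FPKM in priSG-A_1 to priSG-A_3 and at 7.82, 8.84 and 7.17 in priSG-B_1 to priSG-B_3. Its day 6 and day 9 libraries overlapped through priSG-A_3 alone. Gm35533 (chr10:100129868-100144126, minus strand), 29452 bp from Kitl, the gene for the ligand of the KIT receptor of germ cells, stood at 11.5, 14.3 and 11.3 FPKM and at 5.22, 5.75 and 6.20 in the same libraries, without overlap. All 3 priSG-B libraries were low in AY036118 and all 3 priSG-A libraries high, so the type and this split cannot be told apart. The values of priSG-A_3 in these comparisons came from a library that, over loci outside the set, was most like pacSC_1.

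The plpSC mean was a median of 61.8% of the spermatogonial mean, from 0 to 122%. The members that kept most were Gm17024 (chr12:40209487-40211073) at 122%, Gm37637 (chr9:98590495-98591750) at 118%, Gm50321 (chr19:9828899-9836897) at 117% and E130102H24Rik at 111%. Gm50321 stood at 34.9, 25.5 and 0.908 FPKM in plpSC_1 to plpSC_3, and Gm17024 at 2.33, 14.0 and 1.20, so that the former rested on 2 libraries and the latter on 1. The members that kept least were Gm42687 at 0, Gm45841 at 16.4%, A230005M16Rik at 22.6% and Gm43126 at 22.9%. A230005M16Rik (chr2:25705850-25709716, minus strand) lies antisense to Bmyc, a relative of Myc. It stood at 1.02, 1.46 and 0.0571 FPKM in plpSC_1 to plpSC_3 against 3.95, 3.77 and 3.25 in priSG-B_1 to priSG-B_3.

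A few abundant members are uncertain as measurements for reasons other than strand. Gm26917 (chr17:39843013-39846341, plus strand), the most abundant, lies 772 bp from AY036118. It stood at 2863, 1984 and 938 FPKM in priSG-A_1 to priSG-A_3, at 2745, 2520 and 2577 in priSG-B_1 to priSG-B_3, and at 454, 503 and 134 in pacSC_1 to pacSC_3. Its level did not follow AY036118, which was low in both priSG-B and pacSC_1. Gm42687 (chr3:115910370-115910533, inside Dph5) and Gm45841 (chr7:6155287-6155450) span 164 bp each, less than the inferred fragment length of 200 to 270 bp, and each was listed at 0 in 13 of 18 libraries. Gm42687 stood at 5.61 FPKM in priSG-A_2, at 39.3, 94.8 and 136 in priSG-B_1 to priSG-B_3 and at 168 in elST_3. Gm45841 stood at 157 FPKM in priSG-B_1 and at 0 in priSG-B_2 and priSG-B_3. A 0 at such short loci can be a failed estimate, and without them the median share kept in elST_2 was 3.91% in place of 3.74%.

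The starts of the members could be read for part of the set. RefSeq promoter windows on GRCm38.p6, from 250 bases before to 50 bases after a start, were found for 28 of the 91 loci, with 32 windows. Their median GC content was 55% with 12 CpG, against 49.3% and 4 for 4703 windows of the loci in the table and 52.7% and 7 for all 32851 windows. Each was searched on both strands for 7 motifs. CCAAT was found in 17 of 32 windows (53.1%; 37.4% of all windows and 36.9% of those of the table), and GGGCGG in 15 (46.9%; 35.7% and 19.8%). The windows with CCAAT came from fewer loci, since E430024I08Rik and 4933427D06Rik each gave several. Windows chr13:74462920-74463219 and chr13:74463094-74463393 of E430024I08Rik overlap and share a match. CACGTG was found in 5 (15.6%; 7.15% of all), TATAAA in 1 (3.12%; 13.6%), TGACGTCA in 1 (3.12%; 1.79%), CCGGAAGT in 2 (6.25%; 3.89%) and ACATTGT in 0 (2.96% of all). No CCAAT match shared bases with a GGGCGG match. These shares are descriptions of letters, over windows that are only part of the set. No share was taken over the other expressed loci alone, so none can be called particular to the set.

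Windows of the 4 most abundant members that have one are printed to show where the motifs lie. Every member was chosen for its fall in the libraries of the rule, and shared control was not tested. Capitals mark matches to the 7 motifs on either strand.
Zfas1, chr2:167062684-167062983 (+ strand): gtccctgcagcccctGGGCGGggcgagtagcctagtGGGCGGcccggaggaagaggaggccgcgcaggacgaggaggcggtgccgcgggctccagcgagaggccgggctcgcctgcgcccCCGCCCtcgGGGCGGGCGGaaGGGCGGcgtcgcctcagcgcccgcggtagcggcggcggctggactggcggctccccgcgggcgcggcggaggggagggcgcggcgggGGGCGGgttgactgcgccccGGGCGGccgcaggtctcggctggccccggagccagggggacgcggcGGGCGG
5430405H02Rik, chr2:156862896-156863195 (- strand): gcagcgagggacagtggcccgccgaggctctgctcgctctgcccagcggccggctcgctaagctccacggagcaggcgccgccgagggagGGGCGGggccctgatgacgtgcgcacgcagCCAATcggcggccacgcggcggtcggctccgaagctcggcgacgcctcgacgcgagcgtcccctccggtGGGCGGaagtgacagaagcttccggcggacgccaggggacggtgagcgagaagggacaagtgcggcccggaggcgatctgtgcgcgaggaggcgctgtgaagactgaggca
Firre, chrX:50635272-50635571 (- strand): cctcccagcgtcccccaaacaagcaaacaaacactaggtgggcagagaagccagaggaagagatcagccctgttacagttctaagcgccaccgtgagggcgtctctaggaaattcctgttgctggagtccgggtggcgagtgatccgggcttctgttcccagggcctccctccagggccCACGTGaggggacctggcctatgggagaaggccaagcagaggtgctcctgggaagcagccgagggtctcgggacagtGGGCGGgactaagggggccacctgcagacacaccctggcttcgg
B230354K17Rik, chr17:45433581-45433880 (+ strand): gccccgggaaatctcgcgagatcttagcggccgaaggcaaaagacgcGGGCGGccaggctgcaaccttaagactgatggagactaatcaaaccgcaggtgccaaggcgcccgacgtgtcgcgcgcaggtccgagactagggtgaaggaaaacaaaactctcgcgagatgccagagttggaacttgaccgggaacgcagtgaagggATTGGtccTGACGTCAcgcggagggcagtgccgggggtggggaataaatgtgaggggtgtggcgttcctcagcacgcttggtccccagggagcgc
Zfas1 and 5430405H02Rik had 83.0% and 73.0% GC with 47 and 42 CpG, and Firre and B230354K17Rik had 62.7% and 61.3% GC with 12 and 27 CpG. GGGCGG was in all 4 windows, CCAAT in those of 5430405H02Rik and B230354K17Rik, CACGTG in that of Firre and TGACGTCA in that of B230354K17Rik. B230354K17Rik (chr17:45433598-45442544, plus strand) starts 139 bp from Cdc5l, a splicing gene read the other way. It stood at 14.95, 13.9 and 5.91 FPKM in priSG-A_1 to priSG-A_3, at 21.2, 21.2 and 19.6 in priSG-B_1 to priSG-B_3, at 3.14, 3.65 and 1.33 in pacSC_1 to pacSC_3 and at 14.96, 0.948 and 3.44 in elST_1 to elST_3.

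Markers of cell types could be checked only through noncoding neighbours, since none of the coding markers looked for was a row of the table. The 17 rows beside spermatogonial markers summed to 20.9 to 29.6 FPKM in the priSG libraries of the rule, but the members Gm43126 and Gm20402 made up much of this. Without them, the other 15 summed to 4.47 to 10.6 FPKM in those libraries and to 4.19 in priSG-A_3. The sum was then 3.87, 7.90 and 6.24 FPKM in plpSC_1 to plpSC_3, 4.21 to 5.46 in pacSC, 5.31, 3.16 and 2.22 in rST_1 to rST_3 and 7.52, 4.43 and 5.15 in elST_1 to elST_3. Without the members the types overlapped, so this list gives no check of the set that is independent of the rule. Nearly all of the sum of 9 rows beside spermatid markers came from 1700027A15Rik at Tnp1, given above, with 874 of 929 FPKM in plpSC_3 and 4539 of 4563 in rST_2. Without it, the other 8 summed to 3.71 to 10.2 FPKM in the priSG libraries of the rule, plpSC_1, plpSC_2, rST_1 and elST_1, and to 10.3 in priSG-A_3. They summed to 22.7 to 54.6 FPKM in plpSC_3, the pacSC libraries, rST_2, rST_3, elST_2 and elST_3. The libraries in which the members were low were thus those with the higher sum. The 4 rows beside meiotic markers summed to 4.03 FPKM in priSG-A_3, against 1.24 and 0.589 in priSG-A_1 and priSG-A_2. They summed to 6.41, 8.41 and 6.48 FPKM in pacSC_1, pacSC_2 and elST_3, and to 0.291 to 2.17 in the rest. Most of the sum in priSG-A_3 came from 4930553I04Rik at Piwil1, with 3.06 FPKM there and 0 in priSG-A_1 and priSG-A_2.

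Other cells of the testis were checked in the same way. Loci beside Sertoli markers summed to 2.04, 2.81 and 2.14 FPKM in priSG-A_1 to priSG-A_3, 0.905 to 1.00 in priSG-B, and 2.28, 2.51 and 0.418 in plpSC_1 to plpSC_3. They summed to 0.445, 0.427 and 2.06 FPKM in pacSC_1 to pacSC_3, 3.25 in rST_1 and less in rST_2 (1.90) and rST_3, and 2.40, 0.772 and 0.320 in elST_1 to elST_3. This sum was lower in plpSC_3 than in plpSC_1 and plpSC_2 and lower in elST_2 and elST_3 than in elST_1, as the members were. It was not low in pacSC_3, and in rST all 3 libraries were at 1.90 FPKM or more. Of its 4 loci, only Wt1os reached 1 FPKM in at least 3 libraries. Wt1os stood at 2.06, 2.38 and 0.212 FPKM in plpSC_1 to plpSC_3, 0.134 to 0.377 in pacSC, and 2.80, 0.858 and 0.846 in rST_1 to rST_3. It stood at 2.08, 0.272 and 0.159 FPKM in elST_1 to elST_3, but at only 0.682 to 0.787 in priSG-B. Gm11681, beside Sox9, gave 1.13 FPKM of the sum in pacSC_3. Loci beside peritubular and stromal markers summed to 5.88, 1.84 and 0.782 FPKM in priSG-A_1 to priSG-A_3, 0.374 to 0.653 in priSG-B, 1.25, 1.47 and 0.214 in plpSC_1 to plpSC_3 and 1.88, 0.363 and 0.0603 in elST_1 to elST_3. They summed to 0.0223 to 0.313 FPKM in pacSC and 0.359 to 0.478 in rST, where rST_1, high in the members, was the lowest. The part of either sum in the members' levels was not tested. Loci beside Leydig markers summed to 0.168 to 0.993 FPKM and those beside macrophage and endothelial markers to under 0.1. These were 2 loci for Leydig cells and 1 each for macrophages and endothelium. None of them, and none of the 4 peritubular and stromal loci, reached 1 FPKM in at least 3 libraries. Such low loci cannot show whether these cells were present. Of 16 noncoding transcripts known from somatic or embryonic mesodermal tissue, 15 were in the table and 10 reached 1 FPKM in at least 3 libraries. Their sum was 326 and 141 FPKM in priSG-A_1 and priSG-A_2, 68.6 to 71.6 in priSG-B, 65.9 and 83.7 in plpSC_1 and plpSC_2, 47.4 in rST_1 and 54.8 in elST_1. It was 36.1 FPKM in priSG-A_3, 31.6 in plpSC_3, 67.1 in pacSC_3, 33.2 and 20.0 in elST_2 and elST_3, and 20.8 to 59.0 in the other pacSC and rST libraries of the rule. None of the 15 was at 0 in every library. H19, the most abundant of them, stood at 234 FPKM in priSG-A_1 and 0.436 in elST_3. H19 and Rian themselves met the levels of the rule and were left out by name, so the sum follows the members in part by that choice. Without them, the other 13 summed to 73.0 and 41.7 FPKM in priSG-A_1 and priSG-A_2, 19.4 to 23.7 in priSG-B, 42.2 and 41.6 in plpSC_1 and plpSC_2, 33.7 in rST_1 and 28.5 in elST_1. They summed to 28.8 FPKM in plpSC_3, 62.0 in pacSC_3, 39.0 and 55.3 in rST_2 and rST_3, and 16.7 to 28.0 in pacSC_1, pacSC_2, elST_2 and elST_3. Libraries high and low in the members overlapped in this sum, largely through Mir99ahg. Mir99ahg stood at 44.03, 23.13 and 43.13 FPKM in pacSC_3, rST_2 and rST_3 and was also the largest part in plpSC_3. It stood at 16.83 FPKM or less in priSG-A, priSG-B, plpSC_1, plpSC_2, rST_1 and elST_1. Mir22hg split as the members did, with 2.572 to 14.56 FPKM in the latter libraries and 0.8287 to 1.387 in all others. Mirg did not, with 0.2088 to 2.027 and 1.081 to 4.356 FPKM. The part of this sum in the members' levels was not tested.

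The day 56 elST libraries were compared with the day 14 plpSC libraries, since the rule used neither. The comparison asks whether the loci are lower late in the series than at day 14. Over 4117 loci with at least 1 FPKM in at least 3 libraries, limma with Benjamini-Hochberg adjustment called 0 loci (0%), and 14 were below an unadjusted p of 0.05. None of the 91 members, all of which passed the filter, was called or was among the 14. Without the trend and robust options limma also called 0, with 17 below an unadjusted p of 0.05. The smallest adjusted p over all loci was 0.983. The mean was lower in elST for 88 of the 91 members (96.7%), against 29.5% of all tested loci. Over loci outside the set, plpSC_1 and plpSC_2 had r of 0.959 and 0.964 with priSG-A_1 and priSG-A_2 of the rule. On the other side, elST_3 had r of 0.978 with pacSC_2 and elST_2 had 0.894 with rST_2. The members' direction was thus largely set by the choice of loci and supports nothing beyond it. The members' median log2 fold change, on the log2(FPKM + 1) scale that understates changes of low loci, was -0.63, from -1.63 to 2.47, and that of all loci was 0.29. Under quantile normalization, which shifted the median of all loci to -0.03, the members' median was -1.11.

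**Figure D5:**
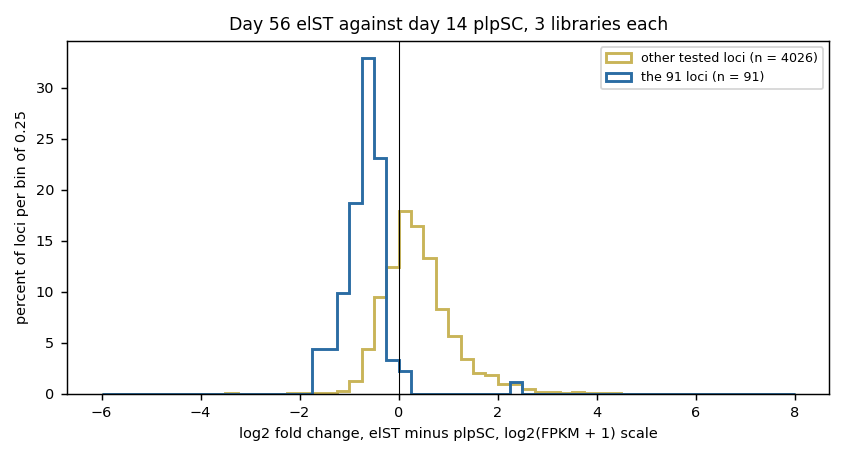
Distribution of the log2 fold change between 3 elST and 3 plpSC libraries, on the log2(FPKM + 1) scale, for the 91 loci (blue) and the other tested loci (yellow), as percent of loci per bin of 0.25. The blue line lies mostly below 0, with a median of -0.63, and no locus passed an adjusted p of 0.05.

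Single members had wide errors in this comparison. Firre had a log2 fold change of -1.35 with a standard error of 1.58 (limma, Benjamini-Hochberg adjusted p = 0.983). Zfas1 had -0.53 with a standard error of 1.38, and Gm43126 had -0.78 with 0.92. Gm47283 had the lowest value, -1.63 with a standard error of 1.17, and Gm42687, through its value of 168 FPKM in elST_3 alone, the highest, 2.47 with 1.93. In most members plpSC held 1 low library and elST 1 high one.

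Leaving out plpSC_3 and elST_1, the libraries that stood apart from their types on loci outside the set, changed the result. This choice was made after seeing the data, and with 2 libraries against 2 it called 1946 loci. In it limma called 77 of the 91 members (84.6%) lower in elST, against 10.5% of all tested loci, and 0 higher, against 36.8%. The members' median log2 fold change was -1.97. Over loci outside the set, plpSC_1 and plpSC_2 had r of 0.959 and 0.964 with priSG-A_1 and priSG-A_2, and elST_3 had 0.978 with pacSC_2. With these libraries the contrast comes close to the fall that chose the members, so the share called is a description and no support for it. AU020206 had the lowest value, -3.92, from 19.5 and 16.7 FPKM in plpSC_1 and plpSC_2 to 0.160 and 0.369 in elST_2 and elST_3. Firre had -3.91 and Gm2044 had -3.05. Over 16 other settings that kept at least 1 of the 2 libraries, no member had an adjusted p below 0.364 (limma, Benjamini-Hochberg).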

How the data were processed

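RNA was measured in 18 libraries of 6 types, 3 per type, grouped by the labels. The authors deposited 1 table of FPKM for 13218 loci; per the submitters' processing notes they used HISAT2, StringTie and mm10. Not given in the sources used here are versions, annotation, strand setting and the FPKM denominator. The table held 0 other columns of per-sample values.

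The members and lists were chosen with earlier results of these data known. Positions and types came from GENCODE M21 (90 of 91 members matched by identifier). Depth was inferred from 3345 single-exon loci, whose low FPKM were whole multiples of 1 fragment within 0.02 for 98.4 to 99.7% of values. Tests used limma 3.58.1 (R 4.3.3; trend and robust options) on log2(FPKM + 1), loci with 1 FPKM in at least 3 libraries, Benjamini-Hochberg adjustment and a threshold of 0.05. The fit was tested on simulated data with independent noise of equal spread. Such noise lacks the differences shared across loci that set plpSC_3 and elST_1 apart, so it cannot vouch for the fit here. Tables and figures used Python 3.11.15, numpy 2.4.6, pandas 2.3.3 and matplotlib 3.10.9.

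Members named by rule were the 12 most abundant, the 2 rows on each side of each threshold, the 4 highest and 4 lowest in plpSC relative to the spermatogonial mean, those within 5 kb of a marker and the 4 highest in elST. Called members of the main test would also have been named. Other members were named for a microRNA, chromosome, neighbour or count after their values were seen.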

Additional observations from a re-analysis of the deposited data

How the results depend on the processing

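The number of members was 91 by the rule, 32 with a fold of 8, 152 with a fold of 2, 21 with a floor of 1 in place of 0.1, 4 with all 3 libraries of each type and 98 with no name dropped. For elST against plpSC, limma called 0 loci in the main fit and in every other setting but those that follow. Leaving out 1 library at a time gave 0 to 1 locus (1 without elST_1) and 0 members. The members' median log2 fold change then ran from -1.40, without plpSC_3, to -0.20. Leaving out both plpSC_3 and elST_1, chosen after seeing the data, gave 1946 loci, 77 members and a median of -1.97. With the replicate number as a block, limma called 0 loci (72 below an unadjusted p of 0.05) and the members' median was -0.63. No label says that the numbers pair the libraries. Deviations of same-numbered libraries from their type means had r of 0.87, -0.83 and 0.39, and those of plpSC_2 and elST_1 had 0.89. The signs follow plpSC_3 and elST_1, which stood apart from their types, so these r cannot show whether the numbers pair libraries. The block changed no call, but 0 loci were called without it. Of 482 alternative values for 29 named members, 429 kept direction and side of the threshold, 22 passed the threshold, 2 were at 0 (Gm42687) and 29 changed sign. Gm26917 (0.12) became -0.67 under quantile normalization and -2.11 without plpSC_3 and elST_1, and Gm45841 (0.07) became -1.97 in the latter. With the high AY036118 libraries alone, Apol7d (-0.09) became 0.060 and Gm4316 (-0.25) became 0.16. Leaving out 1 library, the ranges were -1.50 to 0.22 for 5430405H02Rik, -0.65 to 0.31 for Apol7d, -1.53 to 0.13 for B230354K17Rik, -1.53 to 0.25 for BC002059, -1.92 to 0.088 for Gm10252, -0.99 to 0.24 for Gm20402, -1.68 to 0.34 for Gm20628, -1.11 to 1.16 for Gm26917, -0.92 to 0.16 for Gm4316, -1.31 to 1.38 for Gm45841, -1.73 to 0.41 for Zfas1 and -1.10 to 0.19 for Zim2. The cause of these changes was not tested. Limits are the 3 libraries per type, the libraries that go against their labels, and FPKM in place of counts.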
